A study of Mus musculus with 16 samples.

Results

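CD antigens and innate immune surface receptors were compared between the kidney and the liver of wildtype males of C3HeB/FeJ, an inbred strain of mouse. The set was defined by gene symbol alone: numbered Cd symbols without Cd2ap and Cd2bp2, and symbols beginning with Fcgr, Fcer, Clec, Lgals or with Tlr and a number, without Clec4f. It held 69 of the 9669 genes named on the array, and 58 of them had values in at least 2 mice on each kind of array and were tested, among 9047 genes tested in all. For this description the 69 members were sorted by what their products are known for: 11 T and NK cell antigens, 9 antigens of B cells and antigen presentation, 8 myeloid antigens, 8 C-type lectins, 7 galectins, 5 Fc receptors, 3 Toll-like receptors, 5 tetraspanins, 9 broadly expressed antigens, 3 endothelial or stromal antigens and Cd3eap.

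CD numbers were given to surface molecules recognised by groups of antibodies on leukocytes, and many of those molecules are also made by epithelium and endothelium. Toll-like receptors and C-type lectins bind microbial structures, Fc receptors bind antibodies, galectins bind sugars on glycoproteins, and tetraspanins organise other membrane proteins. In the liver, Kupffer cells and the sinusoidal endothelium carry many such receptors and clear particles from portal blood. In the kidney, resident macrophages and dendritic cells lie between the tubules, and tubule cells themselves use several of the same proteins for endocytosis and adhesion.

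RNA from single mice was hybridised to 16 cDNA arrays with 2 colours, each also carrying a pool of the opposite organ from 5 animals. On 7 arrays a left kidney (mouse 1, 2 or 3) was paired with a liver pool, with 3 arrays each for mice 1 and 2 and 1 array for mouse 3, and on 9 arrays the dorsal liver lobe of these animals was paired with a kidney pool. The animals were 105 ± 5 days old, were kept free of specified pathogens and carried no label of a treatment or an altered allele. Repeated arrays of 1 mouse and organ carry 1 RNA and were averaged, giving 6 values per gene, 3 from kidney arrays and 3 from liver arrays, and the pools give no spread of their own.

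Values are given as the log2 of kidney over liver on arrays centred to a median of 0, so that 1 is a doubling in kidney and -1 a doubling in liver. A level within an organ cannot be read from a ratio. The deposited direction was set by textbook markers: albumin (Alb) then stood at -7.44 and the androgen-regulated kidney protein Kap at 6.50. In the sample titles the single sample stands before the pool, and that order would exchange the words kidney and liver throughout while leaving sizes and tests as they are. Tissue was measured in bulk, so fewer cells of a type and less RNA per cell cannot be told apart.

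With this direction, which such markers had set, 16 of 17 tested hepatocyte markers were called higher in liver and 11 of 11 proximal tubule markers in kidney. Of 8 tested markers of the loop of Henle and distal nephron, 5 were called higher in kidney. Another of them, Krt18, was called higher in liver at -1.30 (adjusted p = 0.00062 by limma). Between 15480 and 19432 of the 20419 features had a value on an array. The arrays of mouse 2 stood apart before centring. Their deposited medians as kidney over liver lay between -1.49 and -1.19, although the labels state a median ratio of 1, and those of mice 1 and 3 lay between -0.0027 and -0.0006. After centring, bright features still stood at medians of 1.24 to 1.34 on the arrays of mouse 2 against 0.10 to 0.41 on the other arrays, and dim features at -0.27 to -0.19 against -0.09 to -0.00. Brightness was judged by how seldom a feature's exact value recurs on its array, since small whole-number intensities give few distinct ratios. A ratio far from most others also recurs seldom, so a large organ difference can place a feature among the bright ones at any intensity. Results are therefore also given without mouse 2, and with the arrays of mouse 2 aligned to the others within classes of recurrence.

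Of the 58 tested members, 22 (37.9%) were called by limma at an adjusted p under 0.05, beside 32% of all genes tested. Calls went equally to each organ: 11 members (19%) were higher in kidney, beside 19.5% of all genes, and 11 (19%) were higher in liver, beside 12.4%. The median over the tested members was -0.14, against -0.01 over all genes. The share of members higher in kidney was near the background. Both organs came from the same animals, and a fit that takes the mouse as a replicate block called 14 members, beside 17.2% of all genes. Of these, 8 were higher in kidney and 6 in liver, beside 11.9% and 5.38% of all genes. These 14 (24.1%) also had 1 sign in all 6 averages, which held for 15.8% of all genes, 10.9% in kidney and 4.86% in liver. Alignment of mouse 2 gave 22 called members (37.9%, beside 36.4% of all genes). Of these, 10 were higher in kidney (17.2%, beside 20.7% of all genes) and 12 in liver (20.7%, beside 15.6%). Alignment and block together called 19 members (32.8%, beside 26% of all genes). They were 9 higher in kidney (15.5%, beside 15.8% of all genes) and 10 in liver (17.2%, beside 10.2%). Without mouse 1, 9 of 45 tested members were called, beside 16.1% of all genes. Without mouse 2, 17 of 43 were called, beside 36%, and without mouse 3, 12 of 54, beside 20.7%. On the deposited values without centring, 5 members were called higher in kidney (8.62%, beside 5.56% of all genes) and 9 in liver (15.5%, beside 8.88%). Of all genes 14.4% were called, and the median of all genes was -0.48. Quantile normalization of the uncentred ratios, with an all-gene median of -0.52, called 7 members higher in kidney (12.1%, beside 11.2% of all genes) and 39 in liver (67.2%, beside 60.9%). No member called in the main fit and in another setting changed direction between them. Counts by role and by list are to be read beside 19.5% of all genes in kidney and 12.4% in liver. Counts with the block are to be read beside 11.9% and 5.38%.

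**Figure D1:**
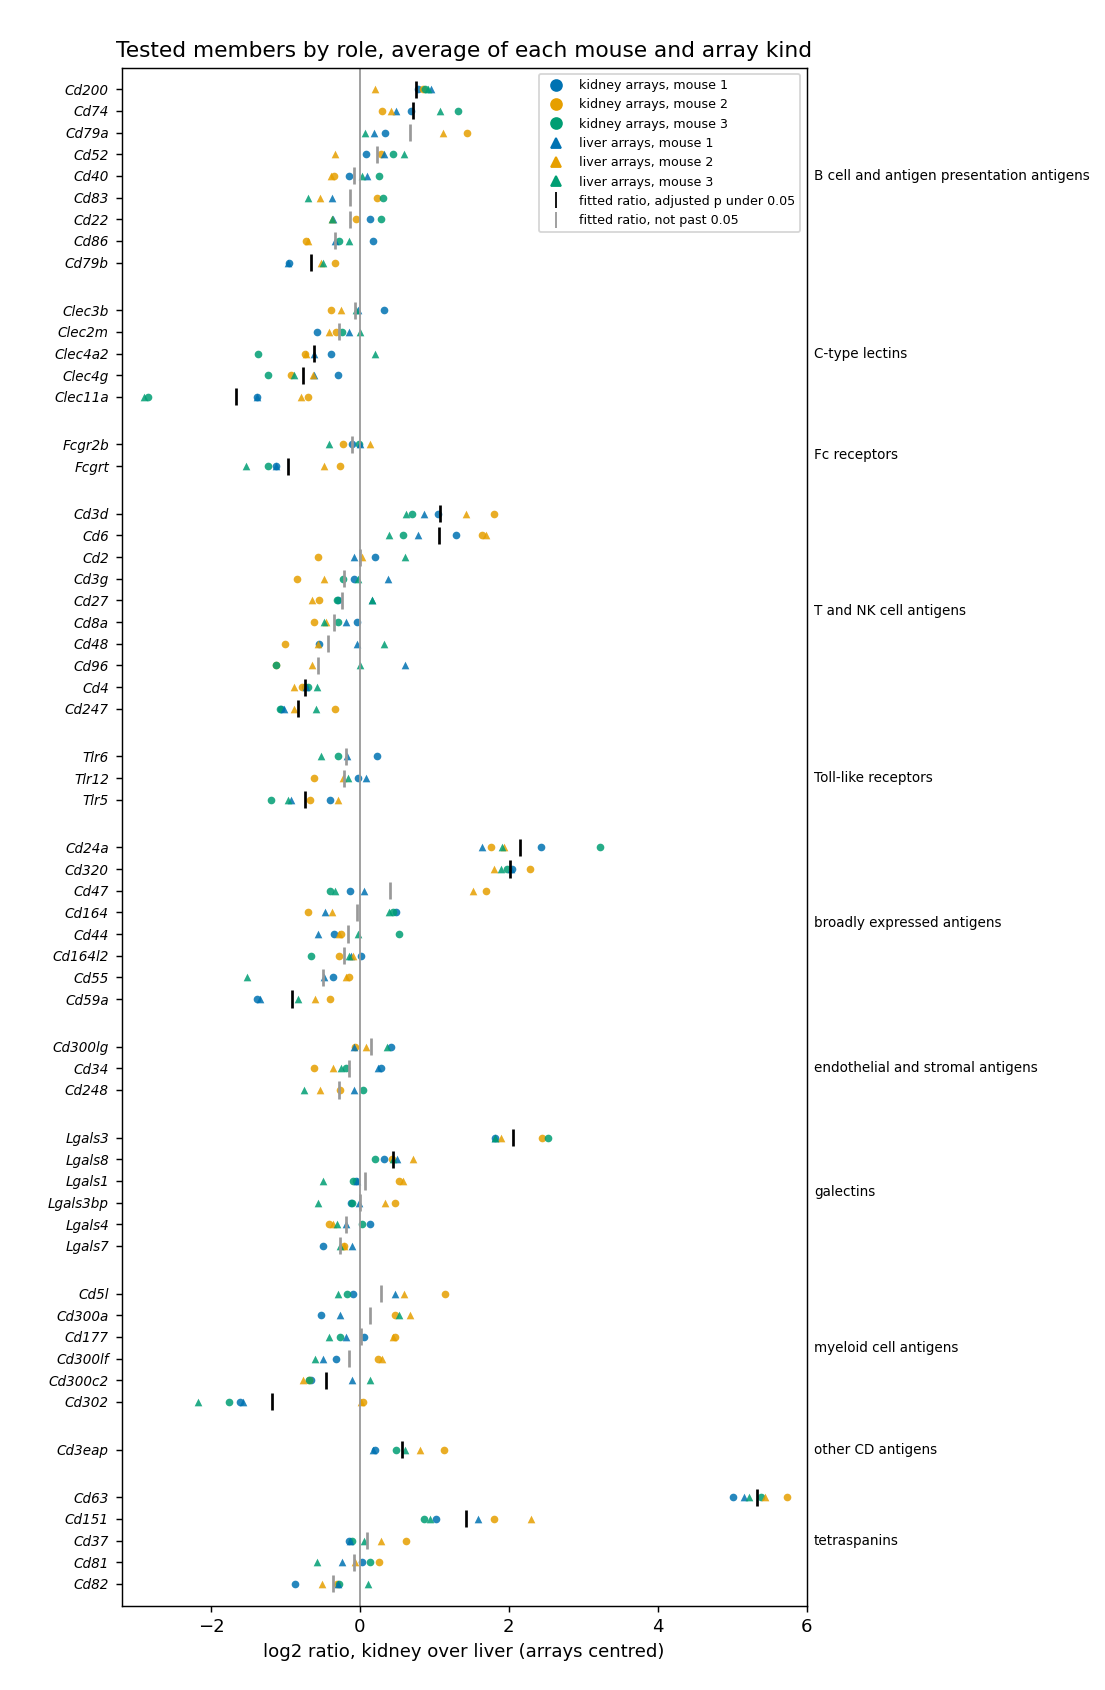
Log2 ratios of kidney over liver for the 58 tested members, in rows grouped by role. Circles are averages of the kidney arrays and triangles of the liver arrays of mice 1, 2 and 3, and vertical bars are fitted means, black where the adjusted p was under 0.05; Cd63 stands alone at 5.33 and Clec11a lies lowest at -1.66.

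Of the 5 tetraspanins, 2 were called higher in kidney and the other 3 did not pass the test. Cd63, a tetraspanin of late endosomes, lysosomes and exosomes, differed most of all members. It stood at 5.01, 5.74 and 5.39 on the kidney arrays of mice 1, 2 and 3 and at 5.16, 5.44 and 5.22 on the liver arrays. All 6 averages lay far above those of every other member. The fitted difference was 40.1-fold in favour of kidney (log2 5.33 ± 0.14 SE, adjusted p = 4.11e-08, and 1.96e-06 with the block). Its 2 features on the array gave 5.36 and 5.29, so both clones read the same difference to within their SE of 0.14 and 0.15. Without mouse 2 the ratio was 5.19, and with mouse 2 aligned it was 4.95.

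Cd151, a tetraspanin that partners laminin-binding integrins in epithelia and podocytes, stood at 1.02, 1.80 and 0.86 on the kidney arrays and at 1.58, 2.30 and 0.94 on the liver arrays. Both averages of mouse 2 were the highest of their kind. The difference was 2.67-fold higher in kidney (log2 1.42 ± 0.20 SE, adjusted p = 0.00103, and 0.00707 with the block), and the ratio without mouse 2 was 1.10 (adjusted p = 0.0011). Cd37, a tetraspanin of B cells, gave 0.10 ± 0.15 SE, Cd81, part of the B cell coreceptor, gave -0.08 ± 0.12 SE, and Cd82 gave -0.36 ± 0.14 SE. The adjusted p-values of these 3 genes were 0.629, 0.656 and 0.0866.

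Of the 8 tested antigens that many cell types express, 2 were called higher in kidney and 1 in liver. Cd320, the receptor that takes up transcobalamin with bound vitamin B12, had averages of 2.04, 2.29 and 1.98 on kidney arrays and 2.03, 1.80 and 1.90 on liver arrays. All 6 averages lay at or above 1.80. Kidney was 4.02-fold higher (log2 2.01 ± 0.12 SE, adjusted p = 5.25e-06, and 0.000244 with the block). Its ratio without mouse 2 was 1.99, and 1.63 with mouse 2 aligned.

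Cd24a, a small sialoglycoprotein of immature lymphocytes and of epithelium, averaged 2.43, 1.76 and 3.22 on kidney arrays and 1.64, 1.94 and 1.91 on liver arrays. It was 4.44-fold higher in kidney (log2 2.15 ± 0.19 SE, adjusted p = 5.96e-05, and 0.000377 with the block). This value is the mean of 2 features that differed. The first, of which 50% of values recurred, had values on 14 of 16 arrays and gave 0.13 ± 0.15 SE (adjusted p = 0.537 over all features), with averages between -0.15 and 0.26. The second, with 0% recurring, gave 3.45 ± 0.12 SE (adjusted p = 2.01e-07), with averages between 3.22 and 3.63. Both high kidney averages reflect arrays on which the first feature had no value: the single kidney array of mouse 3, and 1 kidney array of mouse 1 at 3.85, whose other kidney arrays stood at 1.65 and 1.79. Which of the clones represents the Cd24a transcript was not tested.

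Cd59a, which keeps the complement membrane attack complex from forming on a cell, was higher in liver in the main fit at -0.91 ± 0.20 SE (adjusted p = 0.0115), but not with the block (adjusted p = 0.0768). It had values on 8 arrays. Cd47, the signal that restrains phagocytosis by macrophages, had averages that separated by mouse. A mouse and its set of arrays cannot be told apart. Mouse 2 stood at 1.69 and 1.52, whereas mice 1 and 3 lay between -0.40 and 0.05. Aligning mouse 2 left its averages at 1.07 and 1.06, and the fitted ratio of 0.40 ± 0.32 SE did not pass the test (adjusted p = 0.355). Cd44, the hyaluronan receptor, gave -0.16 ± 0.16 SE, Cd55, which speeds the decay of complement convertases, gave -0.49 ± 0.21 SE, and neither passed the test (adjusted p = 0.457 and 0.116). Cd164, a sialomucin, gave -0.04 ± 0.20 SE and Cd164l2 gave -0.21 ± 0.13 SE, with adjusted p-values of 0.903 and 0.234.

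Among 6 tested galectins, 2 were called higher in kidney. Lgals3, galectin-3 of macrophages and of the collecting duct, averaged 1.82, 2.45 and 2.52 on kidney arrays and 1.81, 1.89 and 1.82 on liver arrays. All 6 averages lay at or above 1.81. The difference was 4.14-fold in favour of kidney (log2 2.05 ± 0.13 SE, adjusted p = 1.08e-05, and 0.000284 with the block), with 1.99 without mouse 2 and 1.72 with mouse 2 aligned. Lgals8 gave 0.44 ± 0.12 SE (adjusted p = 0.0218) with averages from 0.20 to 0.72. It was not called with the block (adjusted p = 0.159), and without centring its ratio was -0.02.

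The other 4 tested galectin genes did not pass the test, with adjusted p-values from 0.166 to 0.992. Lgals1, galectin-1 of mesenchymal and activated immune cells, gave 0.07 ± 0.17 SE. Lgals3bp, a secreted glycoprotein that binds galectin-3, gave 0.00 ± 0.16 SE. The epithelial galectins Lgals4 and Lgals7, whose genes lie next to each other in RefSeq, gave -0.18 ± 0.13 SE and -0.27 ± 0.14 SE. Lgals9, a galectin of Kupffer cells and endothelium, was not tested because a single kidney average was measured. Its 4 averages were -1.18 for the kidney of mouse 2 and -2.79, -1.02 and -2.18 for the livers of mice 1, 2 and 3, all on the liver side.

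Of the 10 T and NK cell antigens tested, 2 were called higher in kidney and 2 in liver. Cd3d, the delta chain of the CD3 complex, averaged 1.05, 1.80 and 0.70 on kidney arrays and 0.86, 1.43 and 0.62 on liver arrays. Mouse 2 was highest on both kinds of array. Kidney was 2.11-fold higher (log2 1.08 ± 0.18 SE, adjusted p = 0.00234, and 0.0172 with the block), and the ratio without mouse 2 was 0.81 (adjusted p = 0.00231). Without centring it was 0.62 and not called (adjusted p = 0.0916).

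Cd6, a scavenger-receptor type costimulatory molecule of T cells, showed the same order of mice, with 1.29, 1.64 and 0.58 on kidney arrays and 0.78, 1.70 and 0.39 on liver arrays. It was 2.09-fold higher in kidney (log2 1.06 ± 0.20 SE, adjusted p = 0.00495, and 0.0249 with the block). Its ratio was 0.76 without mouse 2 (adjusted p = 0.00882), 1.08 without mouse 1 (adjusted p = 0.0626) and 0.61 without centring (adjusted p = 0.103).

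Cd247, the zeta signalling chain of the T cell receptor, lay on the liver side. Its averages were -1.06, -0.33 and -1.07 on kidney arrays and -1.02, -0.88 and -0.59 on liver arrays. Liver was 1.77-fold higher (log2 -0.83 ± 0.15 SE, adjusted p = 0.0032, and 0.0229 with the block), and without mouse 1 the ratio was -0.72 (adjusted p = 0.0745). Cd3g, the gamma chain whose gene adjoins Cd3d, gave -0.21 ± 0.16 SE (adjusted p = 0.332). Chains of 1 receptor complex were thus called in opposite directions, Cd3d in kidney and Cd247 in liver. Whether these clones bind other transcripts was not tested.

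Cd4, the coreceptor of helper T cells, had a narrow range of averages, with -0.74, -0.78 and -0.70 on kidney arrays and -0.72, -0.88 and -0.58 on liver arrays. It was 1.66-fold higher in liver (log2 -0.73 ± 0.11 SE, adjusted p = 0.00172, and 0.0307 with the block). Of its values, 87.5% recurred on their arrays, which marks a dim feature. Cd8a, the coreceptor of cytotoxic T cells, gave -0.35 ± 0.13 SE and did not pass the test (adjusted p = 0.0704). Cd2, Cd27, Cd48 and Cd96, adhesion and costimulatory receptors, gave 0.00, -0.24, -0.43 and -0.56, with adjusted p-values of 0.989, 0.231, 0.0977 and 0.0645. With mouse 2 aligned, Cd96 was called higher in liver at -0.54 (adjusted p = 0.0433).

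Of the 9 antigens of B cells and antigen presentation, 2 were called higher in kidney and 1 in liver. Cd200, a membrane glycoprotein that restrains myeloid cells through its receptor, averaged 0.78, 0.85 and 0.87 on kidney arrays and 0.96, 0.20 and 0.92 on liver arrays. The liver average of mouse 2 was the lowest, and the other 5 lay between 0.78 and 0.96. Single arrays spread more widely. The liver arrays stood at -0.85, 0.6 and 0.85 for mouse 2 and at 1.41, 1.3 and 0.06 for mouse 3. The SD was 0.56 among repeated hybridisations and 0.30 among mice. Kidney was 1.7-fold higher (log2 0.76 ± 0.14 SE, adjusted p = 0.00389, and 0.0307 with the block). The ratio was 0.71 without mouse 1 (adjusted p = 0.0724), 0.70 without mouse 3 (adjusted p = 0.0536) and 0.31 without centring (adjusted p = 0.483).

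Cd74, the invariant chain of MHC class II, gave 0.71 ± 0.17 SE (adjusted p = 0.0122), with all 6 averages above 0, from 0.30 to 1.32. It was not called with the block (adjusted p = 0.0652), and with mouse 2 aligned its ratio was 0.39 (adjusted p = 0.288). The signalling chains of the B cell receptor lay on opposite sides of 0. Cd79b was higher in liver at -0.65 ± 0.16 SE (adjusted p = 0.0207, and 0.128 with the block), whereas Cd79a gave 0.67 ± 0.23 SE and did not pass the test (adjusted p = 0.059). With mouse 2 aligned Cd79a was called higher in kidney at 0.70 (adjusted p = 0.0427, and 0.0423 with the block). The costimulatory molecules Cd40, Cd83 and Cd86 gave -0.08, -0.13 and -0.33, the inhibitory B cell receptor Cd22 gave -0.13, and Cd52 gave 0.23. The adjusted p-values of these 5 genes lay between 0.129 and 0.66.

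**Figure D2:**
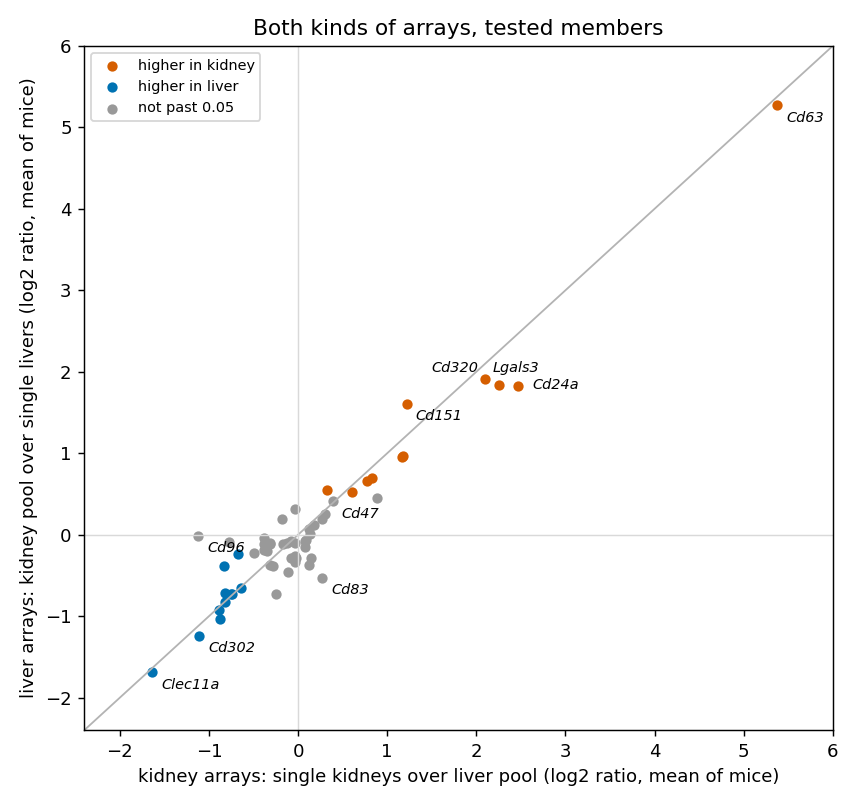
Each point is a tested member, with the mean log2 ratio of kidney over liver on the kidney arrays (horizontal) and on the liver arrays (vertical), and the diagonal marks equal values. Called members lie near the diagonal, from Clec11a at -1.66 to Cd63 at 5.33, and Cd96 and Cd83 are the members farthest from it by the test of array kind.

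All 5 tested C-type lectins had a negative ratio, and 3 of them were called higher in liver. The median of the 5 was -0.61. Clec11a, a secreted growth factor for blood cell progenitors, had the largest liver excess among the tested members. It stood at -1.38, -0.70 and -2.84 on the kidney arrays and at -1.38, -0.79 and -2.90 on the liver arrays, so that each mouse repeated its own value on the other kind of array. The averages differed by mouse, with mouse 3 lowest and mouse 2 nearest to 0, and a mouse cannot be told apart from its set of arrays. Liver was 3.17-fold higher (log2 -1.66 ± 0.33 SE, adjusted p = 0.00543, and 0.0189 with the block). The ratio was -2.12 without mouse 2 (adjusted p = 0.00204), -1.06 without mouse 3 (adjusted p = 0.0194) and -2.04 with mouse 2 aligned.

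Clec4g, a lectin of liver sinusoidal endothelium, averaged -0.29, -0.92 and -1.24 on kidney arrays and -0.61, -0.63 and -0.89 on liver arrays. All 6 averages lay on the liver side. It was 1.7-fold higher in liver (log2 -0.76 ± 0.15 SE, adjusted p = 0.00542, and 0.0381 with the block), and without mouse 3 the ratio was -0.61 (adjusted p = 0.0635). Clec4a2, an inhibitory receptor of dendritic cells and macrophages, gave -0.61 ± 0.18 SE (adjusted p = 0.0324, and 0.0607 with the block). Clec2m gave -0.28 ± 0.12 SE and Clec3b, the plasma protein tetranectin, gave -0.07 ± 0.16 SE, and neither passed the test (adjusted p = 0.111 and 0.758).

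The 5 Fc receptor genes gave 2 tested members. Fcgrt, the heavy chain of the neonatal Fc receptor that rescues IgG and albumin from degradation, averaged -1.12, -0.27 and -1.24 on kidney arrays and -1.12, -0.48 and -1.53 on liver arrays. Mouse 2 lay nearest to 0 on both. Liver was 1.95-fold higher (log2 -0.96 ± 0.19 SE, adjusted p = 0.00514, and 0.0296 with the block). The ratio was -1.26 without mouse 2 (adjusted p = 0.000296), -0.88 without mouse 1 (adjusted p = 0.0829), -0.75 without mouse 3 (adjusted p = 0.0636) and -1.14 with mouse 2 aligned. Fcgr2b, the inhibitory IgG receptor of sinusoidal endothelium and B cells, gave -0.11 ± 0.13 SE and did not pass the test (adjusted p = 0.531).

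The 3 Toll-like receptors had negative ratios, and Tlr5 was called higher in liver. Tlr5, the receptor for bacterial flagellin, averaged -0.40, -0.67 and -1.19 on kidney arrays and -0.92, -0.29 and -0.97 on liver arrays. The kidney average of mouse 1 spans arrays from -1.54 to 1.34. It was 1.67-fold higher in liver (log2 -0.74 ± 0.16 SE, adjusted p = 0.00779, and 0.0429 with the block). The ratio was -0.78 without mouse 1 (adjusted p = 0.0644) and -0.57 without mouse 3 (adjusted p = 0.0806). Tlr6, a partner of TLR2 for lipopeptides, gave -0.19 ± 0.18 SE, and Tlr12, a receptor for profilin of protozoa, gave -0.21 ± 0.15 SE (adjusted p = 0.444 and 0.323).

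Of 6 tested myeloid antigens, 2 were called higher in liver. Cd302, a C-type lectin receptor of macrophages and dendritic cells, averaged -1.61, 0.04 and -1.76 on kidney arrays and -1.57, 0.02 and -2.18 on liver arrays. Both averages of mouse 2 were at 0, and the other 4 lay at -1.57 or below. The fitted difference was 2.26-fold higher in liver (log2 -1.18 ± 0.32 SE, adjusted p = 0.0242), and the call was lost with the block (adjusted p = 0.0634). The ratio was -0.97 without mouse 1 (adjusted p = 0.19) and -0.78 without mouse 3 (adjusted p = 0.18). Without mouse 2 it was -1.78 (adjusted p = 9.8e-05), and with mouse 2 aligned it was -1.50 (adjusted p = 0.000162), with an aligned liver average of -0.89 for mouse 2.

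Cd300c2, an activating receptor of the CD300 family, gave -0.46 ± 0.14 SE (adjusted p = 0.0425, and 0.162 with the block). Its relatives Cd300a, an inhibitory receptor, and Cd300lf gave 0.14 and -0.15. Cd5l, a protein secreted by tissue macrophages, gave 0.28 ± 0.21 SE, with mouse 2 at 1.14 and 0.59 and mice 1 and 3 between -0.29 and 0.47. Cd177, a neutrophil antigen, gave 0.02 ± 0.16 SE. The adjusted p-values of Cd300a, Cd300lf, Cd5l and Cd177 lay between 0.324 and 0.949.

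Markers of cells that carry these receptors were read beside the members. Of 13 tested Kupffer cell and macrophage markers, 4 (30.8%) were called higher in liver and 1 (7.69%) in kidney, and 10 had a negative ratio. Over all genes these shares were 12.4% and 19.5%. With the block 2 of the liver calls and 0 in kidney were kept, and Marco and Msr1 lost theirs (adjusted p = 0.134 and 0.204). Tyrobp, the DAP12 adaptor of many myeloid receptors, stood at -2.47 ± 0.19 SE (adjusted p = 2.87e-05), and Clec4f, a Kupffer cell lectin, at -1.46 ± 0.15 SE (adjusted p = 0.000182). C1qb, a chain of complement C1q, was higher in kidney at 0.76 ± 0.18 SE (adjusted p = 0.0147, and 0.0614 with the block). The chains C1qa and C1qc lay on the liver side at -0.67 and -0.49 without passing the test (adjusted p = 0.0552 and 0.151). With mouse 2 aligned, C1qb was called in kidney at 0.73 (adjusted p = 0.00737) and C1qa in liver at -0.70 (adjusted p = 0.0265). Of 15 tested leukocyte markers, 4 (26.7%) were called higher in liver, among them Cybb at -1.65 and Ikzf1 at -0.94, and 1 (6.67%) in kidney, Cyba at 1.58. These 3 genes were also called with the block, and Coro1a and Lcp1 were not (adjusted p = 0.163 and 0.114). Cybb and Cyba encode the subunits of the cytochrome of the phagocyte oxidase. The part of cell content in the members' ratios was not tested, since ratios give no level of these markers in either organ.

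The 3 endothelial or stromal antigens gave no call by limma at the adjusted threshold, and none had an unadjusted p under 0.05. Cd34, a sialomucin of endothelium and progenitor cells, gave -0.15 ± 0.16 SE, Cd248, endosialin of stromal cells and pericytes, gave -0.28 ± 0.16 SE, and Cd300lg, a receptor of capillary endothelium, gave 0.15 ± 0.15 SE. Among 12 tested markers of general and renal endothelium, 3 (25%) were called higher in kidney and 1 (8.33%) in liver, beside 19.5% and 12.4% of all genes. A positive ratio was seen for 9 of the 12. With the block the counts were 3 and 0. Plvap, of the diaphragms of fenestrae, stood at 1.32, Emcn at 1.18 and Egfl7 at 0.87. The liver call was Ehd3 at -0.69 ± 0.17 SE (adjusted p = 0.0174, and 0.0824 with the block). Of 5 tested sinusoidal endothelial markers, 4 had a negative ratio, and the median was -0.33. Rspo3 was called higher in kidney at 0.65 and Plpp3 higher in liver at -0.49, and neither was called with the block (adjusted p = 0.0517 and 0.179). With mouse 2 aligned, 1 was called in kidney and 2 in liver.

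Cd3eap carries a CD number in its symbol but encodes a subunit of RNA polymerase I. It averaged 0.21, 1.13 and 0.48 on kidney arrays and 0.18, 0.81 and 0.60 on liver arrays, with mouse 2 highest on both. The ratio was 1.48-fold in favour of kidney (log2 0.57 ± 0.16 SE, adjusted p = 0.0265). The call was lost with the block (adjusted p = 0.119), without mouse 1 at 0.76 (adjusted p = 0.06), without mouse 2 at 0.37 (adjusted p = 0.0599), without mouse 3 at 0.58 (adjusted p = 0.119) and with mouse 2 aligned at 0.24 (adjusted p = 0.165).

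**Figure D3:**
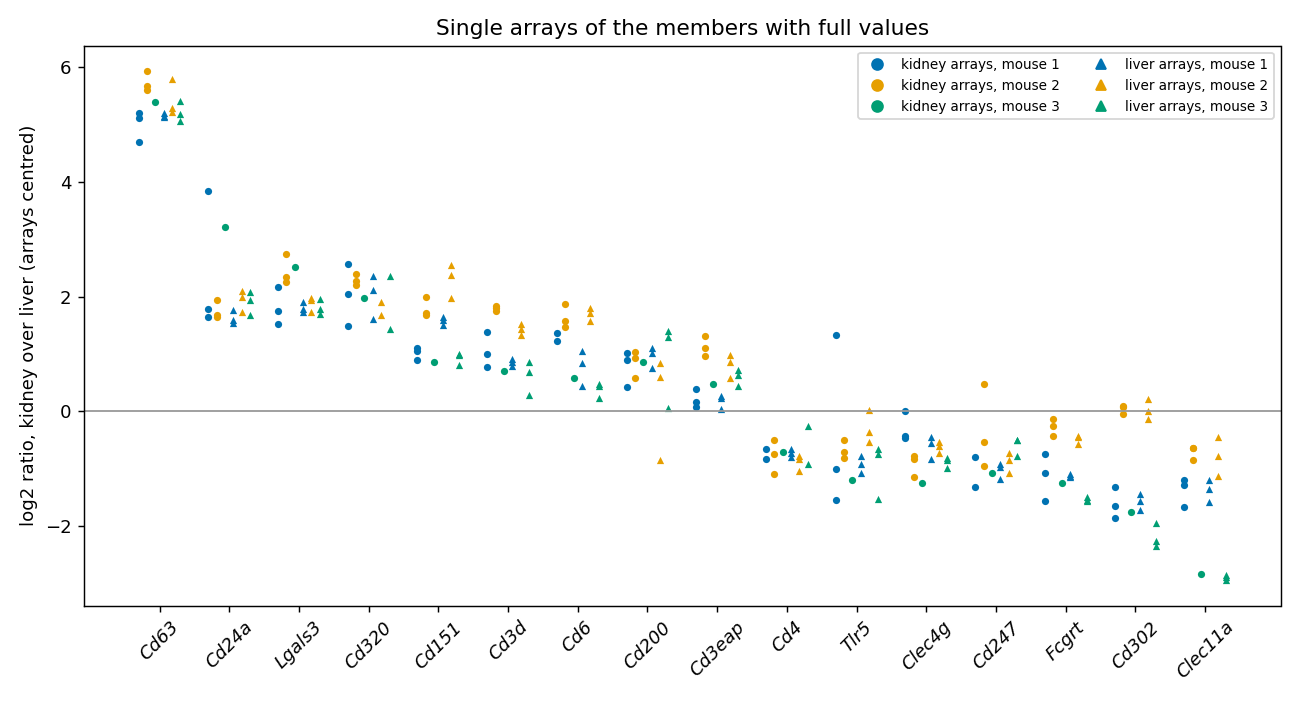
Log2 ratios of kidney over liver on single centred arrays for the members described in full, with points coloured by mouse and kidney and liver arrays marked apart. Repeated arrays of a mouse lie close together for Cd63, between 4.70 and 5.93, whereas Cd302 lies at 0.21 or below on every array with mouse 2 nearest to 0.

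The pathways downstream of these receptors were counted from lists of their components. Of 19 tested genes of Toll-like receptor signalling, 3 (15.8%) were called higher in kidney and 3 (15.8%) in liver, with a median of -0.20. Of all genes, 19.5% were called higher in kidney and 12.4% in liver. With the block 1 was called in kidney and 0 in liver: Traf6, Cnpy3 and Unc93b1 lost their calls (adjusted p = 0.16, 0.2 and 0.184), as did Irak1, and Irf7 had too few values for that fit. Map3k7, the kinase TAK1, stood at 0.92 ± 0.14 SE (adjusted p = 0.00226, and 0.0416 with the block), and the kinase Irak1 at 0.50 ± 0.17 SE (adjusted p = 0.0496, and 0.167 with the block). Irf7, the interferon-inducing transcription factor, stood at -0.97 ± 0.23 SE (adjusted p = 0.0223). Of 13 tested genes that signal from ITAM-bearing and Fc receptors, 3 (23.1%) were called higher in liver and 0 in kidney. They were Tyrobp, the exchange factor Vav2 at -0.52 (adjusted p = 0.0346, and 0.0969 with the block) and the Src family kinase Fgr at -0.36 (adjusted p = 0.0426, and 0.231 with the block). The median of that list was -0.36.

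Over the 58 tested members the SD had a median of 0.23 among repeated hybridisations and of 0.37 among mice. The SD among mice also holds the error of hybridisation and the offset of mouse 2 that centring left, and these were not separated. Single kidneys against a liver pool and single livers against a kidney pool were then compared. For a difference between these kinds of array limma called 0 of 58 members, beside 0.0111% of all genes (1 of 9047). At an unadjusted p under 0.05 stood 2 members, Cd96 and Cd83, and 124 of all genes. Cd96 averaged -1.12 on the kidney arrays of each of the 2 mice measured and between -0.64 and 0.61 on liver arrays, and Cd83 averaged 0.23 and 0.31 against -0.70 to -0.37. Each mouse gave both kinds of array, so the difference was also fitted within mice, taking each mouse as a block for its ratios of kidney over liver. That fit called 0 of 58 members, beside 0.1% of all genes (9 of 8984), and 6 members (10.3%) had an unadjusted p under 0.05, beside 7.89% of all genes. These were Cd83, Cd96, Cd22, Cd81, Cd24a and Cd248, with adjusted p-values from 0.493 to 0.623. For Cd24a the averages depend on the kidney arrays on which its first feature had no value. Its second feature alone averaged 3.5, 3.35 and 3.22 on kidney arrays and 3.43, 3.63 and 3.6 on liver arrays. Cd22 was higher on the kidney arrays by 0.49, 0.32 and 0.66 in mice 1, 2 and 3, and Cd81 by 0.27, 0.33 and 0.70. Both were picked by this same fit, so their shared sign across mice is not separate evidence. Both are dim features, with 90% and 60% of values recurring.

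Calls were counted by how often a feature's values recurred on their arrays. These classes are drawn from the same ratios that were tested. A ratio far from most others recurs seldom, so more calls among features that seldom recur are partly built in. Of 9 tested members with at most 10% recurring, 7 were called, beside 66% of all tested genes in that class. Of 18 with over 10% to 50%, 10 were called, beside 37.9%. Of 19 members with over 50% recurring, 4 were called, beside 14.9%, all higher in liver: Cd4, Cd79b, Cd300c2 and Clec4a2. The remaining 12 had values on too few arrays for a share, and 1 of them, Cd59a, was called, beside 17.5%. Mouse 2 differed from the other mice by a median of 0.39 among the 9. Among the 19 the median was -0.26, without Tlr6, which had no value for mouse 2. Alignment brought mouse 2 nearer to the others for 4 of the 9 bright members and took it farther away for 5. The difference went from 0.06 to -1.08 for Cd320, from 0.39 to -0.74 for Cd63, from 0.18 to -0.80 for Lgals3, from 0.08 to -0.89 for Fcgr2b and from -0.53 to -1.51 for Cd74. Of the 18 members in the middle class 12 came nearer. Of the 19 dim members 14 came nearer and 4 went farther away, Tlr6 being left out.

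**Figure D4:**
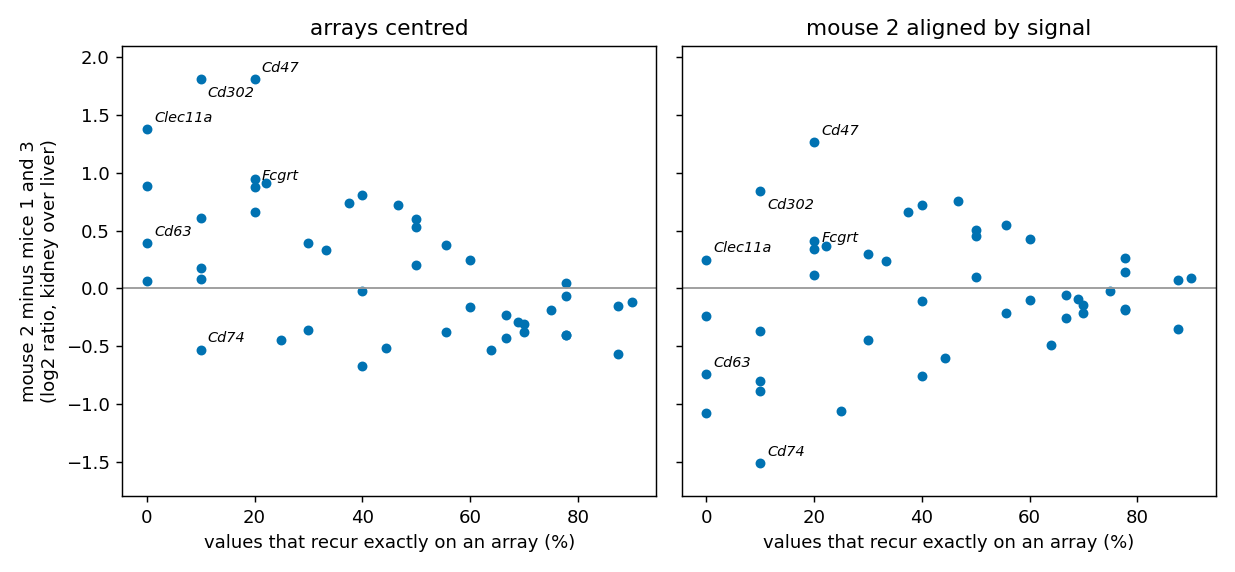
Difference of mouse 2 from the mean of mice 1 and 3 (log2 ratio of kidney over liver) for each tested member with enough values, against the percentage of its values that recur on their arrays. The left panel shows centred arrays and the right panel mouse 2 aligned by signal; Cd302 and Cd47, both at 1.81 on centred arrays, lie highest, and members with over 50% recurring have a median of -0.26.

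The 11 members left untested had values on 1 to 11 arrays. They were the lectins Clec1b, Clec4d and Clec16a, the Fc receptor genes Fcgr1, Fcgr3 and Fcer1g, the myeloid antigens Cd68 and Cd209d, Cd8b1, Cd99 and Lgals9. The shared gamma chain of Fc receptors, Fcer1g, was measured on 1 array, at -0.15 on a liver array of mouse 1. Cd68, a lysosomal protein of macrophages, had averages of -0.18, -0.10 and 0.46, which lay on both sides of 0. Fcgr3, a low-affinity IgG receptor, had averages of 0.29, 0.78 and -0.57, and Fcgr1, the high-affinity IgG receptor, had averages from -0.31 to 0.35.

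Promoter windows, from 250 bases before to 50 bases after a gene's start, were taken from RefSeq (GRCm38.p6) for 53 of the 69 members. They are shown for Cd63 and Clec11a, the tested members with the largest difference in each direction, and for Lgals3, which holds a pair of GC boxes. Capitals mark matches on either strand to GAGGAAG, a purine-rich core bound by PU.1, the factor of myeloid and B cells, or to GGGCGG, the GC box bound by Sp factors. The windows lie at chr10:128909095-128909394 (plus strand) for Cd63, chr14:47373610-47373909 (plus strand) for Lgals3 and chr7:44306910-44307209 (minus strand) for Clec11a, and each reads 5′ to 3′ along the gene's strand.
Cd63: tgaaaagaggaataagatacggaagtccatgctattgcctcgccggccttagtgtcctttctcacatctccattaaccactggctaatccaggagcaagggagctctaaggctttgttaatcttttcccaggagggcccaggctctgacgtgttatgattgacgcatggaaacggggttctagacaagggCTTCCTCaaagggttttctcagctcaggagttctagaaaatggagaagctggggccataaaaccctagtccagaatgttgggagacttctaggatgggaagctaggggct
Lgals3: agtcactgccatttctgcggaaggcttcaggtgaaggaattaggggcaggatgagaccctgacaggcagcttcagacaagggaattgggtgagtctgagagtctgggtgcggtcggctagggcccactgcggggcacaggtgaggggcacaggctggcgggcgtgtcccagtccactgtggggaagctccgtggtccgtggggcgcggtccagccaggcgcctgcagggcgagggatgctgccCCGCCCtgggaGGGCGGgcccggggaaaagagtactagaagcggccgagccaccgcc
Clec11a: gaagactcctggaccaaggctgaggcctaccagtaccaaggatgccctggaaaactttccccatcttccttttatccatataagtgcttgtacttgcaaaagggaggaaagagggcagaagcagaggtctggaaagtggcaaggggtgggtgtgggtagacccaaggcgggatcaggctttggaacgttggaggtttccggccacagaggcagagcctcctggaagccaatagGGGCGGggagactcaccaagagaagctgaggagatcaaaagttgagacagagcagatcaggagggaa

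GAGGAAG occurred in 15 of the 53 member windows (28.3%), against 15.4% of the windows of all 27025 genes. Of the 8 called members with a window that were higher in kidney, 3 held it (37.5%): Cd200, Cd320 and Cd63. Of the 9 higher in liver, 0 did. Whether the motif goes with the direction was not tested. GGGCGG occurred in 18 member windows (34%) against 38.2%, TATAAA, the TATA box, in 8 (15.1%) against 15.7%, and CACGTG, an E-box, in 3 (5.66%) against 8.09%. The motifs were searched on both strands, and matches of different motifs were counted apart even where they could overlap. A match describes the sequence without showing a site in use.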

How the data were processed

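Per the labels' protocols, the authors processed scanner images with GenePix Pro 3.0, took mean intensities with background subtracted and normalised ratios to a median of 1. The deposited values are log2 ratios: among 90 spacings of frequent values, 34 matched a log2 quotient of integers no larger than 10 (tolerance 1e-04), while natural log and log10 matched 0 each. Dyes are not given in the sources used here, and raw intensities were not used. Features with several symbols (806) or none (7890) were left out of the gene fit, which left 11723 with 1 symbol in the platform annotation.

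Each array was centred on its median, then features were averaged per gene and arrays per mouse and organ. The model, in limma 3.58.1 (R 4.3.3), had a mean and an array kind term over the 6 averages, for genes with values in at least 2 mice of each kind. P-values are two-sided, adjusted by Benjamini-Hochberg over all genes (or features) tested. The number of arrays and mice limits the precision. The fit was tested on simulated data.

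The labels take both organs from the same 3 animals. Deviations of a mouse on its kidney and liver arrays, as single sample over pool, correlated at -0.575, -0.789 and -0.568 for mice 1, 2 and 3 over 7514 genes, which are not independent replicates. As kidney over liver these are positive, so for the kidney and liver difference SE and p-values without the block tend to be too small, and for the array kind term too large. A fit of array kind within mice was added after seeing the data.

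Every average, the fold, SE and adjusted p are given for members called with and without the block with 1 sign in all 6 averages, and for the called member with the largest ratio in each role. Of the lists, the 3 called genes with the largest change were eligible, and further list genes were named after seeing the data. Members, roles and lists were chosen with earlier results of these data known. The alignment of mouse 2 by signal was added after seeing the data: each of its arrays was shifted, within 7 classes of recurrence, to the median of the other arrays of its kind. The alternatives tried are listed in the closing section. Figures were drawn with matplotlib 3.10.9.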

Additional observations from a re-analysis of the deposited data

Results flagged for a closer look

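In 4 of 113 groups of 4 to 10 arrays (3.54%), 1 array lay far from the others of its group by Dixon's criterion. The criterion's rate of about 1 in 20 by chance is for independent values. These groups held repeated arrays of several mice, so the shares cannot be compared. Tlr5 stood at 1.34 on kidney array 1c of mouse 1, and the nearest other kidney array lay at -0.49. Cd55 stood at -2.44 on liver array 3b of mouse 3, with the nearest at -0.61. Cd248 stood at -1.98 on liver array 3d of mouse 3, with the nearest at -0.65. Cd63 stood at 5.79 on liver array 2f of mouse 2, with the nearest at 5.41.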

How the results depend on the processing

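The alternatives were values as deposited, quantile normalization, arrays scaled to one spread, the replicate block, limma with trend and robust variances, kidney or liver arrays alone, each mouse left out, values in all 6 averages, no dim features, the median of features, and mouse 2 aligned by signal with and without the block. Over the 16 members described in full these gave 239 results: 204 kept direction and side of the threshold, 35 kept direction but lost the call, and 0 reversed. The cause of each change below was not tested. Members higher in kidney (11) numbered 6 on liver arrays alone, 7 with quantile normalization, 5 as deposited and 6 to 10 with a mouse left out. Members higher in liver (11) numbered 3 on kidney arrays alone, 7 on liver arrays alone, 39 with quantile normalization, 6 with the replicate block, 7 without dim features and 3 to 7 with a mouse left out. The members' median of -0.14 was -0.04 on kidney arrays alone, -0.62 with quantile normalization, -0.60 as deposited, -0.04 without dim features and between -0.13 and -0.10 with a mouse left out. Genes called (2892) numbered 1331 on kidney arrays alone, 1707 on liver arrays alone, 6519 with quantile normalization, 1548 with the replicate block, 1306 as deposited and 1234 to 2724 with a mouse left out. Features called (5445) numbered 2539, 3169, 13609, 2792 and 2358 under the same 5 settings, and 2202 to 4877 with a mouse left out. Genes called for array kind (1) numbered 9 with the replicate block within mice, 3 with mouse 2 aligned, 3 with quantile normalization, and 0 as deposited, with values in all 6 averages and with any mouse left out. Apart from the calls given beside the results, the replicate block changed no call of the 16 members. For 11 of 69 members no test was made, and the number of mice limits the rest.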
